A study of Mus musculus with 21 samples.

Results

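Kdr, Fyn, Havcr1, Rpgrip1, Slco3a1, St8sia1 and Rnf122 are 7 mouse genes picked because their RNA was high in bone marrow-derived eosinophils given an iron chelator, lower in control cells and lowest in cells given iron. All 7 were found by symbol in each of the 3 deposited tables, which hold 16645, 15945 and 22274 genes. The choice rested on the 3 arms of the iron experiment, so the values there are a description with no test. Tests were run on these genes in the other comparisons and on lists of related genes.

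All 21 libraries came from WT mice, and poly(A) RNA was sequenced in bulk. In the iron experiment, bone marrow was cultured with SCF and FLT3L, each at 100 ng/mL, and from day 4 with IL-5 at 10 ng/mL, a scheme that yields bone marrow-derived eosinophils (BMDEs). From the same day the arms had 5 µM deferoxamine (DFO, an iron chelator, n = 3), ferric ammonium citrate at 10 µM (FAC, which supplies iron, n = 4) or neither (control, n = 2), and RNA was taken on day 7. The other groups were untreated bone marrow eosinophils (n = 3), untreated granulocyte-macrophage progenitors (GMPs, n = 3), untreated resting eosinophils (n = 3) and eosinophils given cytokines of a type 2 response (T2, n = 3). The T2 labels name IL-4 and GM-CSF in each library, plus IL33, IL34 and IL35 in replicates 1, 2 and 3. Whether these libraries had different interleukins or the labels count up by mistake is not known, and they were kept as 1 group. The BMDE protocol text is repeated for all samples, and the isolation of the other cells and the age of the mice are not given in the sources used here. No label ties replicates to different mice or cultures, so p-values measure only the spread between these libraries, which may be technical. The series' design text says that the iron arms were made to learn how intracellular iron affects eosinophil differentiation.

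The 7 genes have unrelated roles. Kdr encodes VEGF receptor 2, the tyrosine kinase receptor best known in endothelium, and Havcr1 encodes TIM-1, a surface protein that binds phosphatidylserine on dying cells. Fyn is a Src family kinase that acts below immune receptors. Slco3a1 encodes a membrane carrier of organic anions, including prostaglandins. St8sia1 encodes GD3 synthase, which adds a sialic acid to the ganglioside GM3. Rnf122 is a membrane RING finger protein of the ubiquitin ligase type, and Rpgrip1 encodes a scaffold of the photoreceptor connecting cilium that binds RPGR. Deferoxamine withholds iron from the prolyl hydroxylases that mark hypoxia-inducible factors (HIF) for breakdown. Plasmacytoid dendritic cells, whose markers are given below with those of other cells, arise from marrow under FLT3L, a cytokine of the first culture days.

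The 7 genes fell together by choice, and the bases before their starts were compared. The RefSeq promoter table (GRCm38.p6) held 7 windows for 5 of the genes, Kdr, Fyn, Havcr1, Rpgrip1 and St8sia1, and none for Slco3a1 and Rnf122. In the 250 bases before each start, on both strands, 3 motifs were searched: the core of the HIF site (ACGTG or GCGTG), the E-box CAGGTG and the ETS core GGAAGT. Overlapping matches were counted. The 4 stretches printed here are those before a start of Kdr, St8sia1, Fyn and Havcr1, without bases in an annotated exon and 5′ to 3′ on the gene's strand, with every match in capitals. They are, in order, chr5:75978459-75978705 (minus strand), chr6:142964453-142964702 (minus strand), chr10:39369549-39369763 (plus strand) and chr11:46750261-46750510 (plus strand).
Kdr: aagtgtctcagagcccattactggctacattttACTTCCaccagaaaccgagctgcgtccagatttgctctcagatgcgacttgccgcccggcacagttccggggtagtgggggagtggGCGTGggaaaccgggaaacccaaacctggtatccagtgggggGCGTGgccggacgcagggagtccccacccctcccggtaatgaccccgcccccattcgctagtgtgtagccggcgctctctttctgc
St8sia1: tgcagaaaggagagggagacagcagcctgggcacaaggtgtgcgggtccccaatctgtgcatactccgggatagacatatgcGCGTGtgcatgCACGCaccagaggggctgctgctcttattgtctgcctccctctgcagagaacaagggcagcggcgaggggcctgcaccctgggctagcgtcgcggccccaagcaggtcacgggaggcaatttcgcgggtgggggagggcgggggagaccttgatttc
Fyn: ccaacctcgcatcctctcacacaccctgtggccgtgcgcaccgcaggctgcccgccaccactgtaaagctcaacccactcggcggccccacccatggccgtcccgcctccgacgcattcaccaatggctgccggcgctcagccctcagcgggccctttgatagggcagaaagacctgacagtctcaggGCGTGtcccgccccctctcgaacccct
Havcr1: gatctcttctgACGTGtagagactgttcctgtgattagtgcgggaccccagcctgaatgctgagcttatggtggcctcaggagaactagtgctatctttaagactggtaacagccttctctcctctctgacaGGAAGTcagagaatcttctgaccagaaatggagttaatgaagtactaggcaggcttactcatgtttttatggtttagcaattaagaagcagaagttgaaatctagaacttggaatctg
The HIF core was present in 6 of the 7 windows, against 38.6% of 32851 windows in the table, and no test was run. Havcr1 had more than 1 window, so the windows are not separate genes. Each of the 5 genes had the core in at least 1 window, a count per gene that cannot be set against the share per window. Kdr held 2 matches, 131 and 89 bases before the start, and St8sia1 also held 2, at 168 and 157 bases. Fyn held 1 at 62 bases, Rpgrip1 1 at 109 bases, and Havcr1 1 in each of 2 windows, at 239 and 154 bases. The Rpgrip1 match lay downstream of where an annotated Rpgrip1 exon begins, after the first 51 bases of its window. The ETS core was found once before Kdr and once before Havcr1, at 217 and 118 bases, and in 19.7% of all windows. The E-box was found once, before another start of Havcr1, and in 17.2% of all windows. These are matches of letters, not binding sites.

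Total counts ranged from 16809789 to 17991878 per BMDE library, from 25857382 to 28992668 for bone marrow eosinophils and GMPs, and from 16073573 to 18995878 for resting and T2 eosinophils. Levels below are CPM: counts divided by the TMM-scaled library size, within each table. In the BMDEs the eosinophil granule gene Prg2 took the largest share of counts in every library, from 0.970% (DFO replicate 12) to 3.72% (FAC replicate 6). Markers of other cells were present as well (below). FAC replicate 6 stood apart: its counts differed from those of the other FAC libraries by a chi-square of 56.7 to 95.5 per degree of freedom, against 3.12 to 9.24 among the others. Bone marrow eosinophil replicate 3 stood apart from its group, at 379.3 and 675. The gene with the most counts in bone marrow eosinophil replicates 1 and 2 was Mpo, a progenitor and neutrophil granule gene, and that of replicate 3 was S100a8, a neutrophil gene.

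In the iron experiment each of the 7 genes was higher in every DFO library than in every control library, and higher in every control library than in every FAC library. This order holds by choice. It was shown by 1649 of the 12607 tested genes (13.1%). Levels in DFO were 2.68-fold (Fyn) to 6.11-fold (Rpgrip1) those in FAC. In bulk RNA, fewer cells of a type and less RNA per cell cannot be told apart.

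**Figure D1:**
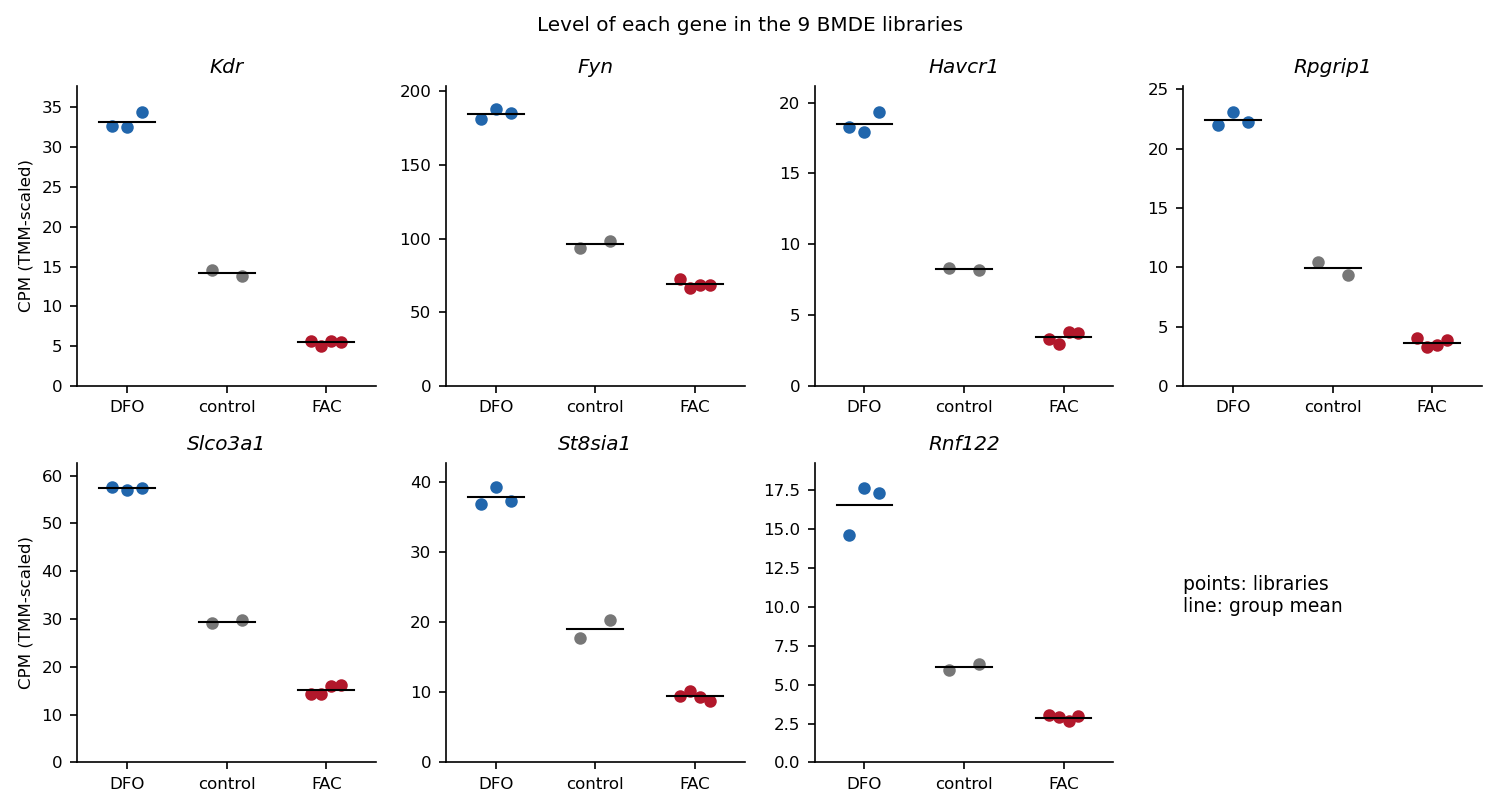
CPM (linear axis from 0) of each gene in the BMDE libraries given DFO, nothing or FAC. Points are libraries and lines are group means. In all 7 panels the 3 groups are separate, for example Kdr at 32.6 to 34.4, 13.8 to 14.6 and 5.08 to 5.68 CPM.

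Kdr, the VEGF receptor, read 32.7, 32.6 and 34.4 CPM in the DFO libraries, 14.6 and 13.8 in the controls, and 5.68, 5.08, 5.63 and 5.48 with FAC. The 3 groups were tight and far apart. On the log2 scale Kdr was 1.23 (SE 0.0879) above control in DFO and at -1.38 (SE 0.0865) relative to control in FAC. The difference from DFO to FAC was the 21st lowest of the 12607 tested genes. Of the other VEGF genes, 7 were tested between FAC and DFO, and they did not share a direction: 2 rose and 3 fell (median log2 fold change -0.09, against -0.01 for all tested genes). These shares were 28.6% and 42.9%, where 23.5% and 24.7% of all tested genes rose and fell. The lymphangiogenic ligand Vegfc fell by 1.83 on the log2 scale (adjusted p = 0.000549), the VEGF-A receptor Flt1 by 0.89 (adjusted p = 0.00328), and placental growth factor Pgf rose by 1.36 (adjusted p = 0.00404, all from edgeR). These 3 were scarce, at 1.91, 2.58 and 0.756 CPM in DFO. Vegfa stood at 56.7 ± 2.97 CPM in DFO and 53.3 ± 3.50 in FAC (SD, n = 3 and 4). Among endothelial markers, Tie1 averaged 14.6, 9.66 and 7.17 CPM in DFO, control and FAC, Esam 14.1, 10.95 and 9.03 and Tek 1.96, 0.946 and 0.916, and all 3 fell from DFO to FAC (adjusted p = 0.000108, 0.00173 and 0.00121). Others were at or near 0: Sox17 had no count in any BMDE library, Emcn had at most 1 count over any arm, and Cdh5 was at most 0.681 CPM. The 10 endothelial markers summed to 293.0 to 301.7 CPM in DFO, 317.2 to 322.5 in controls and 318.2 to 356.0 in FAC, mostly from Pecam1, which blood cells also express, and of 6 tested 1 rose and 3 fell from DFO to FAC. Their part in the level of Kdr was not tested.

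Havcr1 (TIM-1) read 18.3, 17.9 and 19.3 CPM in DFO, 8.32 and 8.19 in controls, and 3.32, 2.96, 3.77 and 3.71 with FAC. The level in FAC varied by 10.97% of its mean (CV), the widest spread of the 7 genes in that arm. Its log2 differences from control were 1.16 (SE 0.114) in DFO and -1.26 (SE 0.116) in FAC. Of 13 tested genes for other phosphatidylserine receptors and bridging proteins, 7 fell and 2 rose from DFO to FAC (median -0.44). These shares were 53.8% and 15.4%, against 24.7% and 23.5% of all tested genes. The engulfment receptor Adgrb1 fell by 1.39, the bridging protein Pros1 by 1.02 and the receptor kinase Axl by 0.80 (adjusted p = 0.000676, 2.89e-05 and 1.75e-05). Axl went from 104.0 ± 0.518 CPM in DFO to 59.5 ± 3.72 in FAC (SD, n = 3 and 4).

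Fyn had the highest level of the 7 genes per transcript length (TPM, below) and fell least. It read 181.3, 187.8 and 185.1 CPM in DFO, 93.4 and 98.7 in controls, and 72.8, 66.5, 68.6 and 68.4 with FAC. The control and FAC libraries lay close together, and the DFO libraries well above both. The log2 difference from control was 0.94 (SE 0.0727) in DFO and -0.48 (SE 0.0665) in FAC, so 66.5% of the whole fall lay between DFO and control. Of 15 tested Src family kinases and their regulators, 9 fell and 2 rose from DFO to FAC (median -0.46). These shares were 60% and 13.3%, against 24.7% and 23.5% of all tested genes. Pag1, the membrane adaptor that recruits the inhibitory kinase Csk, fell by 1.26, and the kinases Fgr and Src fell by 1.13 and 1.01 (adjusted p = 0.000553, 5.59e-06 and 9.14e-06). Fgr fell from 198.8 ± 3.96 to 90.7 ± 2.37 CPM (SD, n = 3 and 4).

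Slco3a1, the anion carrier, had the most even steps. It read 57.6, 57.0 and 57.4 CPM in DFO, 29.2 and 29.7 in controls, and 14.39, 14.32, 15.98 and 16.21 with FAC. The DFO libraries differed by 0.546% (CV), the least of any group of these genes. The log2 differences from control were 0.96 (SE 0.0834) and -0.95 (SE 0.0782). Of its family, 4 other genes were tested and 3 fell from DFO to FAC (75%, against 24.7% of all tested genes). The carriers Slco2b1 and Slco5a1 fell by 1.55 and 1.31, and Slco4a1 by 0.46 (adjusted p = 4.20e-05, 8.18e-06 and 0.00439). Slco4c1 stood at 5.13 CPM in DFO and 4.09 in FAC (adjusted p = 0.550).

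St8sia1 (GD3 synthase) read 36.9, 39.3 and 37.3 CPM in DFO, 17.7 and 20.3 in controls, and 9.47, 10.2, 9.40 and 8.79 with FAC. Each step was close to the other, at 0.99 (SE 0.0958) and -1.01 (SE 0.0916) relative to control. Its annotated exons share 149 bases with Gm7457, so reads there could belong to either gene. Among 19 tested genes of ganglioside synthesis and breakdown, 4 fell and 3 rose from DFO to FAC (median -0.08). These shares, 21.1% and 15.8%, were below the 24.7% and 23.5% of all tested genes. The 3 genes with the largest changes were sialyltransferases: St8sia6 fell by 1.75, St3gal5 by 1.35 and St8sia4 by 0.90 (adjusted p = 0.000274, 1.28e-05 and 0.000300). St3gal5 encodes GM3 synthase, which makes the substrate of GD3 synthase, and went from 44.6 ± 2.45 CPM in DFO to 17.5 ± 2.21 in FAC (SD, n = 3 and 4). The 3 that rose were Neu1, Ugcg and B4galnt1, a lysosomal sialidase and enzymes of glucosylceramide and GM2 synthesis, by 0.66, 0.45 and 0.34 (adjusted p = 6.02e-05, 0.00112 and 0.00158, named after their values were seen).

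Rnf122 read 14.6, 17.6 and 17.3 CPM in DFO, 5.91 and 6.36 in controls, and 3.02, 2.90, 2.63 and 2.97 with FAC. It had the largest step between DFO and control of the 7 genes, 1.43 on the log2 scale (SE 0.123), and stood at -1.09 (SE 0.127) in FAC. Of 9 other tested genes for membrane RING ligases and the partner protein CAML, 4 fell and 1 rose from DFO to FAC (median -0.25). These shares were 44.4% and 11.1%, against 24.7% and 23.5% of all tested genes. The gene that rose, Rnf128, known as GRAIL and for restraining T cell activation, went up by 1.86 from 26.9 to 97.5 CPM (adjusted p = 2.60e-06). Rnf150 fell by 1.08 and Rnf43, which limits Wnt receptors, by 0.66 (adjusted p = 0.000395 and 0.0131).

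Rpgrip1, the ciliary scaffold, read 22.0, 23.1 and 22.2 CPM in DFO, 10.4 and 9.39 in controls, and 4.03, 3.26, 3.47 and 3.88 with FAC. Its fall from DFO to FAC was the 19th lowest of all tested genes and the farthest of the 7. The log2 differences from control were 1.18 (SE 0.108) and -1.44 (SE 0.110). The last exons of Rpgrip1 share 1057 bases with Supt16 on the opposite strand (chr14:52160414-52163546), and the strand setting of the counting is not given. Supt16, a histone chaperone subunit, averaged 163.0 CPM in DFO, 171.5 in controls and 169.4 in FAC, so the fall of Rpgrip1 was not seen in its neighbour. Of 16 tested genes of RPGR and the ciliary transition zone, 7 fell and 1 rose from DFO to FAC (median -0.11). These shares were 43.8% and 6.25%, against 24.7% and 23.5% of all tested genes. Cc2d2a, Tmem67 and Cep290, proteins of the transition zone, fell by 1.37, 0.82 and 0.80 (adjusted p = 0.00435, 0.000112 and 0.00775). Rpgr itself, the partner of Rpgrip1, had a log2 fold change of 0.21 (adjusted p = 0.290).

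**Figure D2:**
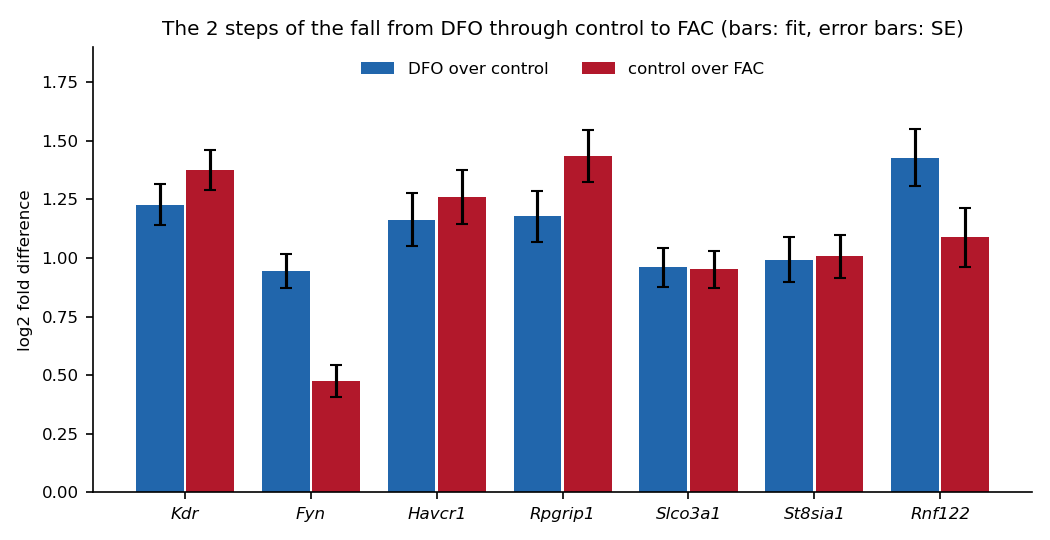
Log2 fold difference between DFO and control and between control and FAC for each gene (bars, from the fit, with SE as error bars). Fyn has the most unequal steps, 0.94 against 0.48, and Slco3a1 and St8sia1 have nearly equal ones; both steps use the same 2 control libraries.

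The 2 steps share the control libraries, so they are not independent of each other. In 3 of the 7 genes (Fyn, Rnf122 and, by a margin far under its SE, Slco3a1) the step between control and DFO was the larger. The share of the whole fall between DFO and control ran from 45.1% (Rpgrip1) to 66.5% (Fyn). Per unit of transcript length, Fyn was the highest in DFO at 93.7 ± 2.90 TPM (SD, n = 3), followed by Slco3a1 at 25.5 ± 0.282, Havcr1 at 17.1 ± 1.16, Rpgrip1 at 10.9 ± 0.350, Kdr at 9.70 ± 0.401, St8sia1 at 6.84 ± 0.281 and Rnf122 at 5.30 ± 0.597. The ranges of neighbours in that order did not overlap. In FAC the 4 highest kept their places, from 28.5 ± 3.98 TPM for Fyn to 1.49 ± 0.242 for Rpgrip1 (n = 4), but the ranges of Rpgrip1, St8sia1 and Kdr overlapped (1.14 to 1.69, 1.16 to 1.47 and 1.00 to 1.49 TPM). Rnf122 was lowest, at 0.748 ± 0.0862 TPM.

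**Figure D3:**
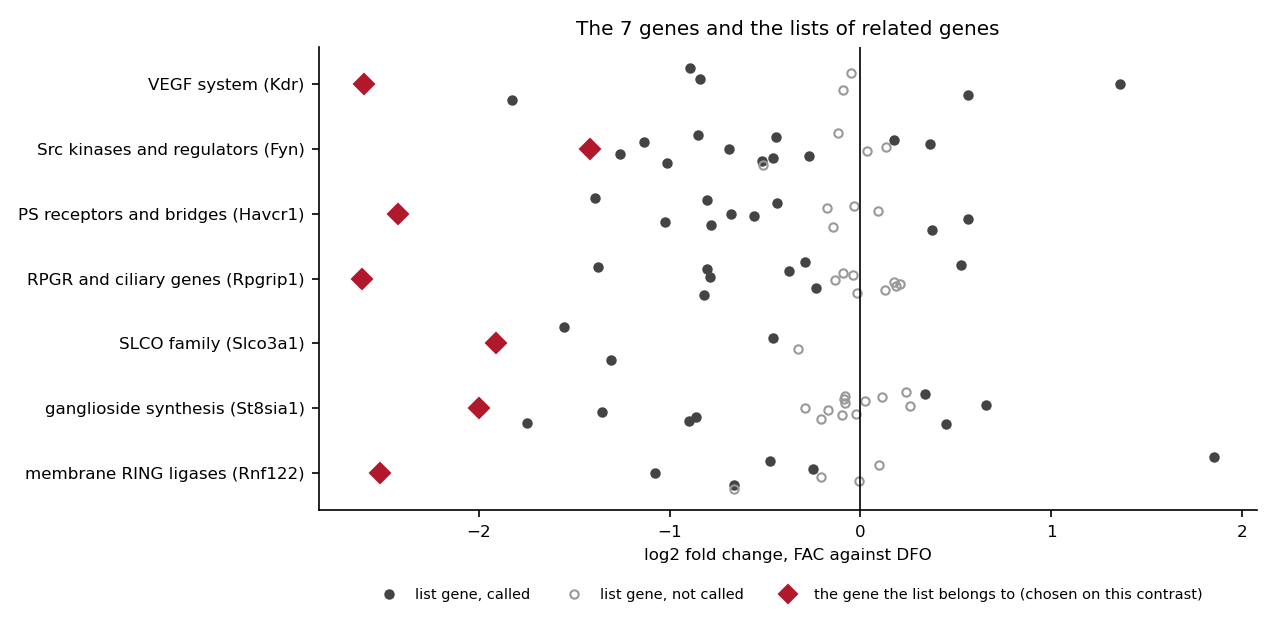
Log2 fold change from DFO to FAC (x axis) of the tested genes of each list of related genes (filled where called at an adjusted p under 0.05, open where not), and of the gene the list belongs to (diamonds). Each diamond lies left of all genes of its list, from -1.42 for Fyn to -2.61 for Rpgrip1, and was chosen on this contrast.

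Over all 7 lists, 37 of 83 tested genes fell from DFO to FAC (44.6%) and 11 rose (13.3%). Among all tested genes 48.2% changed, of which 24.7% of the total fell and 23.5% rose, and no test compared the lists with the rest. Against control, 12 of the 83 rose in DFO (14.5%) and 4 fell (4.82%), where 11.6% of all genes changed, 6.46% up and 5.12% down. In FAC against control 1 rose and 10 fell, where 6.04% changed, 1.76% up and 4.28% down. Without FAC replicate 6 the lists had 13 genes up and 43 down from DFO to FAC (15.7% and 51.8%), where 31.9% and 30.7% of all tested genes were. They had 32 up and 9 down in DFO against control (38.6% and 10.8%, all genes 18.9% and 20.2%), and 3 up and 17 down in FAC against control (3.61% and 20.5%, all genes 9.98% and 11.7%).

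Across the 9 BMDE libraries the 7 genes followed each other closely. Over 21 pairs, Pearson's r of log2(CPM + 1) ran from 0.981 (Fyn and Rpgrip1) to 0.999 (Havcr1 and Slco3a1). This is a description: the libraries share the 3 arms, which set most of the variation, and the genes were chosen for their order over these arms. For each gene the 3 other genes with the highest r were listed, 14 different genes in all, with r from 0.995 to 0.999. They were Apba1, Tcf4 and Carmil1 for Kdr, Slc40a1, Cyb561a3 and Stard8 for Fyn, and Mpeg1, Tcf4 and Carmil1 for Havcr1. For Rpgrip1 they were Carmil1, Spib and Apba1, for Slco3a1 Npas2, Mpeg1 and Net1, for St8sia1 Mycl, Siglech and Spib, and for Rnf122 Cyb561a3, Flt3 and Lpcat1. Tcf4, Spib and Siglech are on the list of plasmacytoid dendritic cell markers, Flt3 is on the conventional dendritic cell list, and Slc40a1 encodes the iron exporter ferroportin, which went from 151.7 CPM in DFO to 101.5 in controls and 85.7 in FAC.

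**Figure D4:**
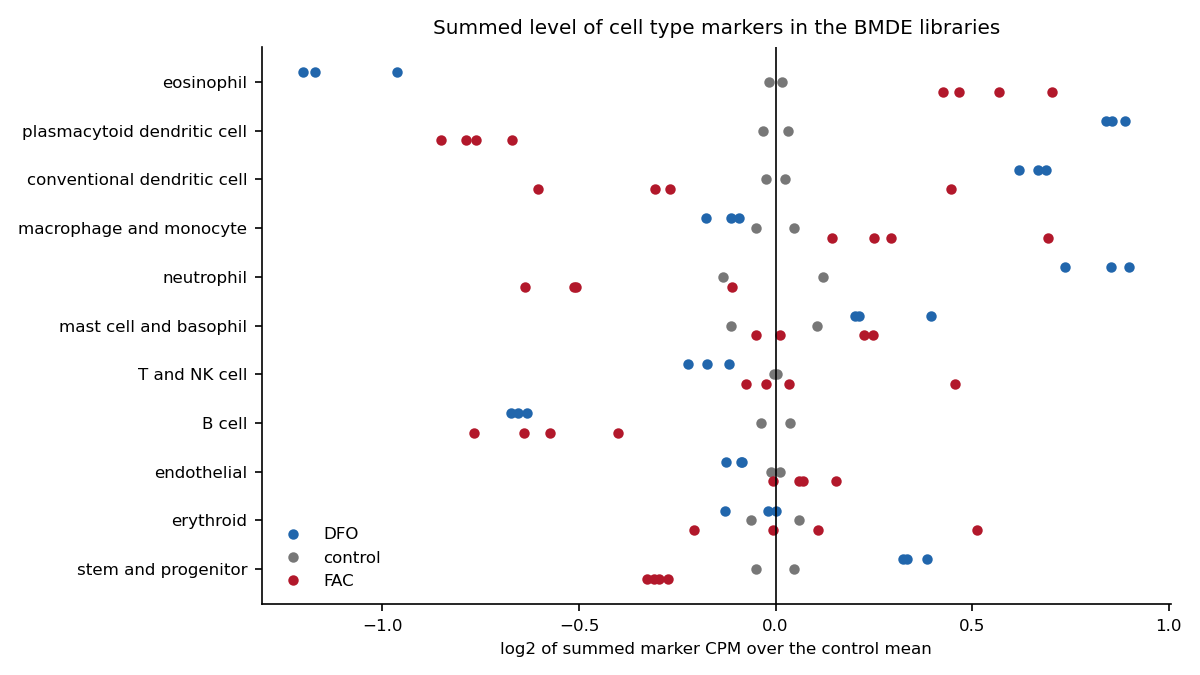
Log2 of the summed CPM of each marker list in every BMDE library, relative to the mean of the 2 controls (points, coloured by arm). Eosinophil markers are low in DFO and high in FAC, and plasmacytoid dendritic cell and neutrophil markers are high in DFO and low in FAC.

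Markers of some other cell types, but not all, moved with the 7 genes. The counts below stand beside 24.7% of all tested genes that fell from DFO to FAC and 23.5% that rose. The 20 plasmacytoid dendritic cell markers summed to 1846 to 1907 CPM in DFO, 1009 to 1053 in controls and 571.7 to 648.1 in FAC, and 19 of the 20 fell from DFO to FAC (none rose, median -1.71). Siglech, a defining surface receptor of that cell, averaged 250.7, 118.5 and 49.5 CPM in the 3 arms, a 5.06-fold fall. The called markers of this list fell between 1.64-fold (Cd4) and 6.285-fold (Ccr9), and Atp1b1 was not called. The 7 genes fell between 2.68-fold (Fyn) and 6.11-fold (Rpgrip1). Neutrophil markers summed to 15733 to 17632 CPM in DFO, 8619 to 10284 in controls and 6077 to 8751 in FAC, and 9 of 9 fell. Of 11 conventional dendritic cell markers 9 fell, and of 8 stem and progenitor markers 7 fell. Macrophage and monocyte markers averaged sums of 2085, 2278 and 2925 CPM in DFO, control and FAC, and of 10 tested 2 rose and 3 fell. The 2 that rose carried the rise of the sum: Ly6c2 (532.7 CPM in DFO and 1627 in FAC) and Vcam1 (63.8 and 308.6). Of 10 mast cell and basophil markers 5 rose and 4 fell, and of 10 T and NK cell markers 2 rose and 2 fell. Of 7 tested B cell markers 1 rose and 2 fell, and of 4 erythroid markers 2 rose and 0 fell. All 12 eosinophil markers rose, with sums of 18879 to 22287, 42944 to 43895 and 58326 to 70655 CPM. Ear1 rose by 2.48, Ear2 by 2.28 and Ear6 by 2.10 on the log2 scale (adjusted p = 2.03e-06, 3.32e-06 and 9.47e-07), and Prg2 by 1.75 (adjusted p = 9.08e-06). The part of these cells in the levels of the 7 genes was not tested.

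In FAC replicate 6 conventional dendritic cell markers summed to 2211 CPM, above the controls, and it was the lowest of the 4 FAC libraries for Kdr, Fyn, Havcr1, Rpgrip1 and Slco3a1 and the highest for St8sia1. It stayed below every control library for all 7 genes. Without that library the log2 differences from DFO to FAC were -2.55 for Kdr, -1.39 for Fyn, -2.35 for Havcr1, -2.55 for Rpgrip1, -1.87 for Slco3a1, -2.02 for St8sia1 and -2.51 for Rnf122. Without it, 19 of 20 plasmacytoid dendritic cell markers fell and 1 rose. Of 10 macrophage and monocyte markers 6 then fell and 2 rose (median -0.40). Of 10 T and NK cell markers 6 fell and 2 rose (median -0.68). Mast cell and basophil markers kept 5 up and 4 down, and of all tested genes 30.7% fell and 31.9% rose.

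Bone marrow eosinophils and GMPs played no part in the choice of the genes, and setting them side by side asks how the 2 labelled cell types differ, though markers of progenitors and neutrophils were high in the eosinophil libraries (below). Of the 6 genes with enough counts to be tested, none was called in edgeR's quasi-likelihood test, where 19.8% of 12214 genes were (13% higher and 6.78% lower in eosinophils). At an unadjusted p under 0.05 there were 2, Fyn and St8sia1, and DESeq2 called the same 2. In 3 of the 6 the 3 libraries of each group did not overlap, against 48.3% of all tested genes.

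Fyn read 6.97, 2.69 and 5.05 CPM in bone marrow eosinophils and 1.35, 1.73 and 1.25 in GMPs, so each eosinophil library was above each GMP library. The log2 fold change was 1.76 (SE 0.572, adjusted p = 0.0731), and DESeq2 gave an adjusted p of 0.0107. St8sia1 read 1.09, 0.806 and 0.449 CPM in eosinophils against 2.19, 3.84 and 2.204 in GMPs, with no overlap (log2 fold change -1.80, SE 0.658, adjusted p = 0.0997, and 0.0265 in DESeq2). Kdr was near 0 in eosinophils, at 0, 0.0768 and 0.393 CPM, and higher in GMPs at 1.53, 2.05 and 0.511 CPM. Its log2 fold change was -3.17 (SE 1.35, adjusted p = 0.142), and without bone marrow eosinophil replicate 3 it was -5.04 with an adjusted p of 0.0162. That Kdr value rests on 0 and 2 counts in eosinophils. Fyn also passed without that library (adjusted p = 0.0301). Leaving out each library in turn gave adjusted p-values up to 0.36 for Kdr and 0.252 for Fyn. For each gene 5 of the 6 fits made no call.

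Rpgrip1 was scattered among bone marrow eosinophils, at 44.6, 8.41 and 35.8 CPM, and read 11.8, 23.0 and 20.3 CPM in the GMP libraries (log2 fold change 0.69, SE 0.591, adjusted p = 0.443). Rnf122 had the same order of libraries, at 9.91, 2.00 and 7.63 CPM against 2.04, 3.59 and 2.14 (log2 fold change 1.33, SE 0.677, adjusted p = 0.204). For both genes replicate 2 was the low eosinophil library and the high library among GMPs. Supt16 averaged 58.9 CPM in eosinophils and 173.1 in GMPs. Slco3a1 read 18.9, 15.6 and 1.96 CPM in eosinophils and 16.4, 15.4 and 16.003 in GMPs. Its log2 fold change of -0.39 (SE 0.709, adjusted p = 0.723) rested on replicate 3, and without it the value was 0.11. Havcr1 was not tested, with 8, 3 and 0 counts in eosinophils and 0 in each GMP library, which allows up to 0.0313 CPM in GMPs (3 counts over the group, counting error only).

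Markers of other cells also differed between these groups. The eosinophil list summed to 20568 to 37206 CPM in the eosinophil libraries against 123.1 to 283.6 for GMPs, and neutrophil markers to 32025 to 194540 against 72.5 to 95.5. Stem and progenitor markers summed to 31443 to 59921 CPM in the eosinophil libraries and 48933 to 57968 in GMPs, ranges that overlap. Plasmacytoid dendritic cell markers summed to 299.2 to 463.6 CPM against 1339 to 1435, mostly through Irf8, at 1232 CPM in GMPs, and of 14 tested 6 were higher and 2 lower in eosinophils (median 2.47). What these cells contribute to the 7 genes was not tested.

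Among the related lists, 78 genes could be compared, and 25 were higher in bone marrow eosinophils and 3 lower (32.1% and 3.85%), where 13% and 6.78% of all tested genes were. No VEGF gene (of 6) and no ciliary gene (of 17) passed the test with all libraries, with medians of -1.05 and -0.48, against 0.01 for all genes, but 3 and 6 did without eosinophil replicate 3 (below). Of 12 Src family and regulator genes 6 were higher (median 0.69), among them the myeloid kinase Fgr (126.9 against 0.326 CPM, adjusted p = 0.000114) and the phosphatase Ptprc (log2 fold change 1.08, adjusted p = 0.0430). Of 12 phosphatidylserine receptor and bridge genes 8 were higher and 1 lower. Timd4, a receptor of tissue macrophages, and Stab2 averaged 14.5 and 11.8 CPM and had no count in GMPs, and Cd300lf averaged 101.0 against 0.381 CPM (adjusted p = 0.00549, 0.00485 and 0.000537). Of 4 carriers, Slco4c1 and Slco2b1 were higher, at 28.2 against 0.0401 CPM and 49.6 against 0.495 CPM (adjusted p = 0.00138 and 0.000463).

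Of 18 ganglioside genes 7 were higher and 1 lower (median -0.04). St3gal5 was at 53.9 CPM against 0.178 and St8sia6 at 20.7 against 1.57 (adjusted p = 0.000148 and 0.0221). Among 9 RING genes, Rnf130 and Rnf167 were higher and Znrf3 lower, by log2 fold changes of 1.46, 1.33 and -1.62 (adjusted p = 0.0189, 0.00317 and 0.0283). Without bone marrow eosinophil replicate 3, 33 of 82 list genes were higher and 15 lower (40.2% and 18.3%), where 20.1% and 16.4% of all 12648 tested genes were. In that fit 6 of 17 ciliary genes were lower (median -0.72), 1 of 7 VEGF genes was higher and 2 lower (median -0.41), and the ganglioside median was 0.52.

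Resting and T2 eosinophils, also not used in the choice, show what cytokines that mimic an allergic response change. Here 4 of the 7 were tested and all 4 were called, 1 higher and 3 lower, where 76.1% of 11345 tested genes were called (38.2% higher and 37.9% lower). All 4 also had no overlap between groups, as did 77.7% of tested genes. These counts are near those of all genes. Marker lists differed too: mast cell and basophil markers summed to 112.2 to 119.9 CPM in resting and 499.6 to 548.4 in T2 eosinophils, plasmacytoid dendritic cell markers to 139.8 to 157.2 and 283.3 to 315.9, and neutrophil markers to 1958 to 2191 and 930.5 to 969.7. Of the tested genes of these lists, 4 of 9, 3 of 12 and 1 of 9 were higher and 4, 6 and 5 lower. Their part in the 7 genes was not tested.

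Slco3a1 was the gene that rose. It read 118.8, 120.9 and 108.2 CPM in T2 and 12.01, 10.97 and 12.14 in resting eosinophils, a 9.91-fold difference (log2 fold change 3.31, SE 0.0705, adjusted p = 7.47e-16). The 3 T2 libraries lay close together. Leaving out any library gave 3.26 to 3.37. Fyn fell, from 12.1, 13.8 and 12.9 CPM in resting to 8.89, 10.6 and 8.16 in T2 eosinophils (log2 fold change -0.49, SE 0.114, adjusted p = 0.00101).

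St8sia1 and Rnf122 were scarce and also called lower. St8sia1 read 0.561, 1.33 and 0.809 CPM in resting and 0.491, 0.243 and 0.503 in T2 eosinophils, which is 10, 26 and 14 counts against 8, 4 and 9. Its log2 fold change was -1.12 (SE 0.442, adjusted p = 0.0315), and the call was lost in DESeq2 (adjusted p = 0.0878) and with no filter on low counts (0.112). Rnf122 read 0.617, 0.561 and 0.578 CPM in resting and 0.307, 0.0608 and 0.335 in T2 eosinophils (log2 fold change -1.28, SE 0.507, adjusted p = 0.0316). That call too was lost in DESeq2 (0.113) and with no filter (0.157). Leaving out single libraries gave adjusted p-values up to 0.204 for St8sia1 and 0.144 for Rnf122. The other 3 genes were too low to test: Kdr had 3, 4 and 0 counts in resting and none in T2 eosinophils (a limit of 0.0592 CPM), Havcr1 0, 2 and 2 against 1, 1 and 0, and Rpgrip1 10, 8 and 12 against 7, 6 and 7.

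**Figure D5:**
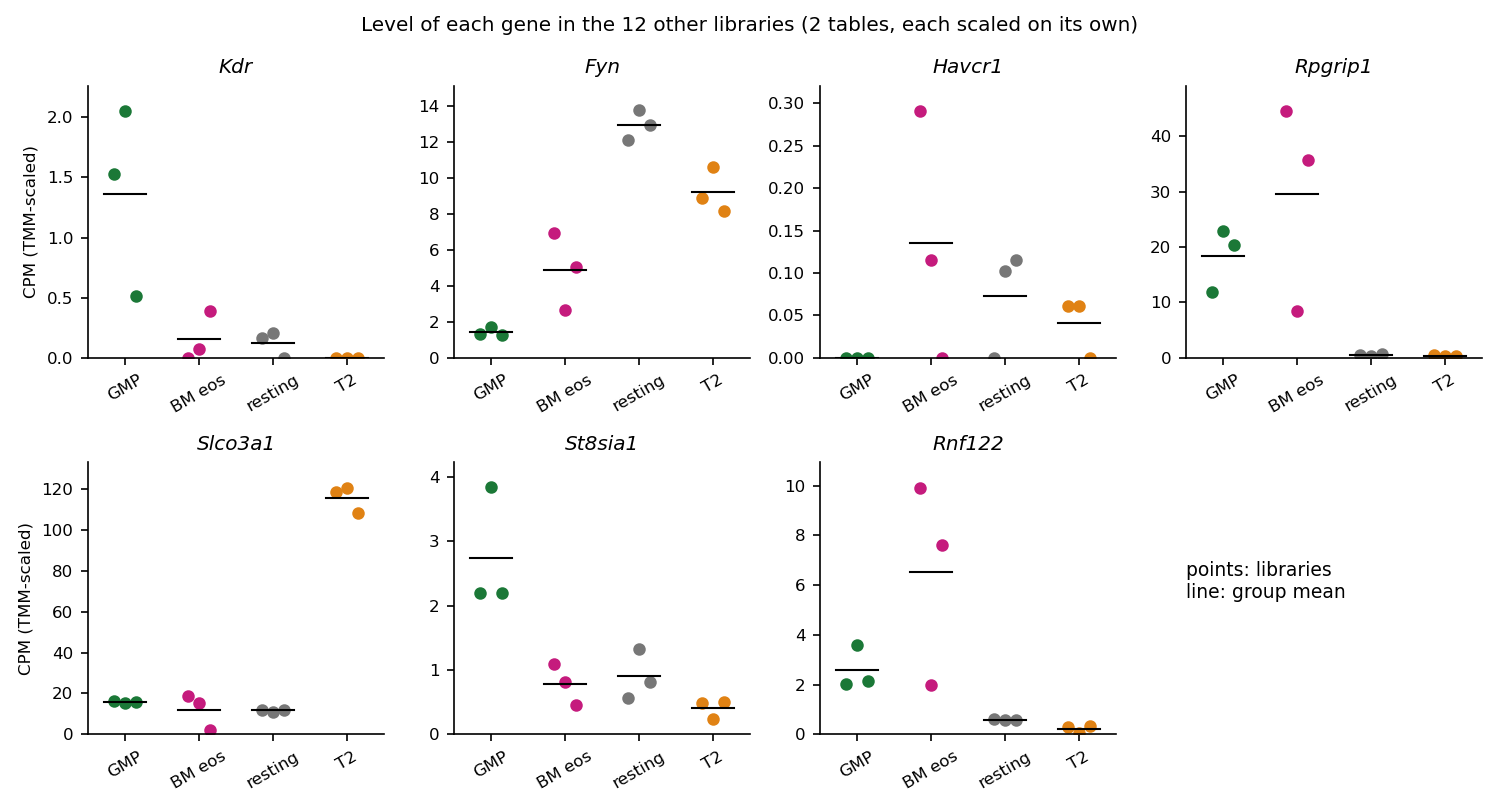
CPM (linear axis from 0, different for each gene) of each gene in GMPs, bone marrow eosinophils (BM eos), resting and T2 eosinophils. Points are libraries and lines are group means; GMP and BM eos were scaled apart from resting and T2. Slco3a1 in T2 stands at 108.2 to 120.9 CPM, above all other groups in its panel, and Havcr1 is below 0.3 CPM throughout.

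Of 70 tested genes on the related lists, 28 rose and 25 fell with T2 cytokines (40.0% and 35.7%), near the shares among all tested genes. All 4 VEGF genes that changed, of 6 tested, rose (median of the list 2.36, against -0.01 for all genes). Pgf rose by 4.403 from 0.272 ± 0.0869 to 5.93 ± 0.263 CPM (SD, n = 3 each), Flt1 by 3.53 from 1.15 to 13.6 CPM, and Vegfa by 2.46 from 7.06 to 38.7 CPM (adjusted p = 9.25e-10, 1.20e-10 and 1.12e-11, edgeR). Kdr had no count in T2 eosinophils, as given above, so the VEGF receptor gene seen there was Flt1, beside the co-receptor gene Nrp2 (log2 fold change 2.26, adjusted p = 5.24e-09, named after its value was seen). The 10 endothelial markers summed to 185.9 to 194.6 CPM in resting and 541.7 to 594.0 in T2 eosinophils, nearly all from Pecam1 (188.2 and 562.0 CPM). Only 2 of the 10 could be tested, with 1 higher and 1 lower, and Sox17 had no count.

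The Src list split, with 6 genes higher and 5 lower (median 0.08). Fgr rose by 2.10, Ptpn6 (the phosphatase SHP-1) rose by 1.36, and Pag1 fell by 1.60 (adjusted p = 2.88e-16, 2.44e-14 and 6.00e-08). Of 9 phosphatidylserine receptor and bridge genes 6 rose and 2 fell (median 0.84), with Mertk at 2.31, Cd300lf at 1.76 and Pros1 at 1.41 on the log2 scale (adjusted p = 0.00249, 3.48e-15 and 1.19e-05). Of 12 ciliary genes 4 fell and 1 rose (median -0.36). Tctn1 fell by 2.94 and Rpgr by 1.95 (adjusted p = 3.23e-14 and 7.60e-07).

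Slco4a1 rose by 1.66 and Slco4c1 fell by 0.91, the 2 other carriers tested beside Slco3a1 (adjusted p = 2.21e-10 and 9.14e-10). Of 18 ganglioside genes 10 fell and 6 rose (median -0.29). St3gal5 fell by 2.38, St8sia6 by 2.31 and St8sia4 by 2.11, the 3 sialyltransferase genes named from DFO to FAC as well (adjusted p = 7.61e-06, 0.000167 and 6.13e-14). Of 8 RING genes 4 rose and 3 fell (median 0.22). Rnf128 rose by 3.79 from 7.36 to 101.9 CPM, Rnf43 fell by 2.202 and Rnf167 by 1.35 (adjusted p = 1.25e-16, 5.63e-05 and 2.93e-12).

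The 7 genes had different orders of level over the 7 groups, which stand in 3 tables scaled apart, so levels across tables are given side by side with no test. Kdr averaged 33.2, 14.2 and 5.47 CPM in DFO, control and FAC BMDEs and at most 1.36 in the other groups. Havcr1 averaged 18.5, 8.26 and 3.44 CPM in the BMDEs and at most 0.135 elsewhere. Fyn averaged 184.8, 96.0 and 69.1 CPM in the BMDEs, 12.9 in resting and 9.23 in T2 eosinophils, 4.90 in bone marrow eosinophils and 1.44 in GMPs. St8sia1 was highest in the BMDEs as well, at 37.8, 19.005 and 9.45 CPM, and averaged 2.75 in GMPs. Slco3a1 was highest outside the BMDEs: its mean of 116.0 ± 6.79 CPM in T2 eosinophils (SD, n = 3) exceeded that of 57.3 ± 0.313 in DFO BMDEs. Rpgrip1 averaged 29.6 ± 18.9 CPM in bone marrow eosinophils beside 22.4 ± 0.591 in DFO BMDEs (SD, n = 3 each), a spread that covers both. Rnf122 averaged 16.5 CPM in DFO BMDEs, 6.51 in bone marrow eosinophils and 6.13 in control BMDEs, and the libraries of bone marrow eosinophils (2.00 to 9.91 CPM) span those of the controls (5.91 to 6.36).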

How the data were processed

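The authors deposited 3 tables of mouse genes. The BMDE and bone marrow eosinophil tables hold expected counts (estimated reads per gene, not normalized) and TPM, and the T2 table holds read counts and FPKM, per the file headers. The submitters' processing notes name RSEM, StringTie 1.3.1, HISAT2, Bowtie2 2.2.8 and fastp 0.18.0 with mm10 and no roles. Strand setting is not given in the sources used here. Counts that were not whole were rounded. The tables were fitted separately in edgeR 4.0.16 (R 4.3.3, limma 3.58.1) with TMM factors, filterByExpr, the two-sided quasi-likelihood F test and Benjamini-Hochberg adjustment over all tested genes. Calls are adjusted p-values under 0.05. Every adjusted p in the text is from this fit unless DESeq2 (1.42.0) is named. The 3 BMDE arms were 1 fit. The fit was tested on simulated counts. Limits for counts of 0 are 3 counts and cover counting error only. Coordinates are GRCm38 with GENCODE M21.

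Members, related-gene and marker lists, and rules were chosen with earlier results of these data known. Named were all 7 genes, up to 3 called genes of each list by size of change, the 3 genes most correlated with each member, and the marker list whose summed level moved most between DFO and FAC (eosinophil, by the ratio of mean sums); plasmacytoid dendritic cell values were added after the correlated genes were seen. Some list genes that this rule names are not reported here. The symbol Havcr1 stands on 3 rows for T2 and resting eosinophils, and the row with its own identifier was used.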

Additional observations from a re-analysis of the deposited data

How the results depend on the processing

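The 7 genes kept their order in every BMDE library without TMM factors and with upper-quartile factors, and of 273 alternative values of their BMDE log2 differences 0 reversed and all stayed within the spread between libraries. In the other comparisons, 1 of 100 reversed: Slco3a1 in bone marrow eosinophils against GMPs, at 0.11 without bone marrow eosinophil replicate 3 (-0.87 to 0.11 over the libraries left out). Counts of called genes moved more, and the cause was not tested. With only the 2 arms compared, DFO against control had 5982 and FAC against control 116. DESeq2 gave 1311 for FAC against control and 3867 for bone marrow eosinophils against GMPs, with 2 of the 7 genes called. DESeq2 and no filter on low counts each left 2 of the 7 called for T2. Leaving out 1 library gave 217 to 4899 calls for DFO against control and 76 to 2728 for FAC against control (both highest without FAC replicate 6), 4250 to 7855 for FAC against DFO, 747 to 4623 for bone marrow eosinophils against GMPs (highest without replicate 3), with 0 to 2 of the 7 genes, and 8300 to 8520 for T2, with 2 to 4. With the replicate number as a block, eosinophils against GMPs had 1419 calls instead of 2413 and St8sia1 in T2 had an adjusted p of 0.0529. The numbers share only a name: deviations of same-numbered libraries correlated at 0.0168, -0.053 and 0.19, and at -0.0348, -0.0181 and -0.015 for T2. With a prior of 0.25 CPM, 19 of the 21 most similar genes stayed. Depth limits Kdr, Havcr1, Rpgrip1, St8sia1 and Rnf122 in resting and T2 eosinophils, where no library held more than 26 counts of any of them.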
